A study of Homo sapiens with 6 samples.

Results

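The early response genes described here are EGR1, EGR2, EGR3, NR4A1, IER2, IER5, IER5L, IER3 and SRF, 9 genes chosen by symbol, and all 9 were found among the 16376 genes of the deposited expression table. They were measured by RNA sequencing in HOS, a wild-type cell line from a human osteosarcoma (a bone tumour). Of the 6 libraries, 3 came from HOS cells kept for 24 h with Agrimol B, a phloroglucinol compound of agrimony plants, and 3 from HOS control cells for which the labels list no treatment. The sources used here give neither the dose of Agrimol B nor whether control cells received its solvent, and do not say that replicates were separate cultures. The labels list no time for the control cells, so whether both groups were harvested after the same time is not known. The p-values thus rest on the variation among libraries of a group, which could be technical alone. Levels are FPKM, fragments scaled to transcript length and library depth. Comparing them between genes rests on the transcript lengths used, which the sources used here do not give.

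Early response genes are transcribed within minutes of a growth factor, serum or stress signal, without new protein synthesis. SRF, a MADS-box transcription factor, binds the CArG box in many of their promoters together with ELK factors, which the ERK kinase cascade phosphorylates. With the MRTF coactivators, which are held back by free actin monomers, SRF also drives genes of actin and of contractile proteins. EGR1, EGR2 and EGR3 are zinc finger transcription factors that bind GC-rich sites, and NR4A1 is an orphan nuclear receptor. IER2, IER5 and IER5L form a family of related nuclear proteins, of which IER5 binds the phosphatase PP2A and the heat shock factor HSF1, while IER3 prolongs ERK activity and affects cell survival.

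The promoters of EGR1, SRF and EGR2 are shown because they hold the CArG box that SRF binds, so that SRF and its textbook targets can be seen together. RefSeq windows (GRCh38.p14, 250 bases before to 50 after a transcript start) were found for 7 of the 9 members, 11 windows in all, with no window used for EGR3 or IER3. Each stretch ends at the last base before the start and runs 5′ to 3′ on the gene's own strand, with the CArG boxes in capitals.
EGR1, chr5:138465359-138465478, plus strand: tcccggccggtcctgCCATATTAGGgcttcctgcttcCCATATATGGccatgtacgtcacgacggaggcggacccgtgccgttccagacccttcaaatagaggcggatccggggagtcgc
SRF, chr6:43171149-43171268, plus strand: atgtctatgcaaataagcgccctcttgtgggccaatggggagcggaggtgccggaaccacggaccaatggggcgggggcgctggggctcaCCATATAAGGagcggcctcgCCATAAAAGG
EGR2, chr10:62816367-62816486, minus strand: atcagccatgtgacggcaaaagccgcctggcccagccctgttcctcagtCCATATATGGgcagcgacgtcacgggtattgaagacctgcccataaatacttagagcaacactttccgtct

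Counted from the transcript start, the CArG boxes of EGR1 lay at -105 to -96 and at -83 to -74, those of SRF at -30 to -21 and at -10 to -1, and that of EGR2 at -71 to -62, at the third of its RefSeq starts. The CArG box was present in 3 of the 11 member windows and in 1.29% of 35116 windows of all genes. It reads the same class of letters on both strands. The letters TGACGT, the core of the cAMP response element, were searched on both strands and stood at 2 places before EGR1 (-136 to -131 and -67 to -62) and at 1 place before EGR2 (-55 to -50), against 7.98% of all windows. The letters GCGNGGGCG, the site that EGR proteins themselves bind and which can overlap the GC box of SP1, stood before EGR1 (-198 to -190), before SRF (-49 to -41) and at another start of EGR2, against 9.43% of all windows. None of these 3 motifs was found in the windows used for NR4A1, IER2, IER5 and IER5L. A match describes letters and shows neither binding nor use of the site.

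After 24 h with Agrimol B the early response genes did not move one way. No earlier time was sampled, so an induction within minutes or hours, or its absence, was not measured. EGR1 rose 4.32-fold and IER3 1.45-fold, while SRF, IER5L and IER5 fell, with control levels 1.45-fold, 1.42-fold and 1.24-fold those with Agrimol B. NR4A1 and IER2 did not pass the test, and EGR2 and EGR3 were near 0 in all 6 libraries and were not tested. Differences are of log2(FPKM + 1), Agrimol B minus control, from limma fitted across the 12143 genes that averaged 1 FPKM or more, and p-values were adjusted over all of these genes by the Benjamini-Hochberg method. A gene was called at an adjusted p of at most 0.05. On this scale the change of a gene with low values is understated, so the ratio of the mean FPKM values is given as the fold.

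Of the 7 members tested, 2 were called higher, against 30.6% of all tested genes, and 3 were called lower, against 21.4%. In either direction 52.0% of all tested genes were called, so a call alone sets no member apart. The shares of 30.6% and 21.4% hold for FPKM without further scaling. With median-ratio scaling 3089 genes were called higher and 3148 lower. The 7 differences had a median of -0.29, against 0.07 over all tested genes, and a median size of 0.43 regardless of sign, against 0.27. In 5 of the 7 (EGR1, IER3, SRF, IER5 and IER5L) the values of the groups did not overlap, as in 62.2% of tested genes. In bulk RNA a change in the share of cells that express a gene cannot be told apart from a change in RNA per cell.

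**Figure D1:**
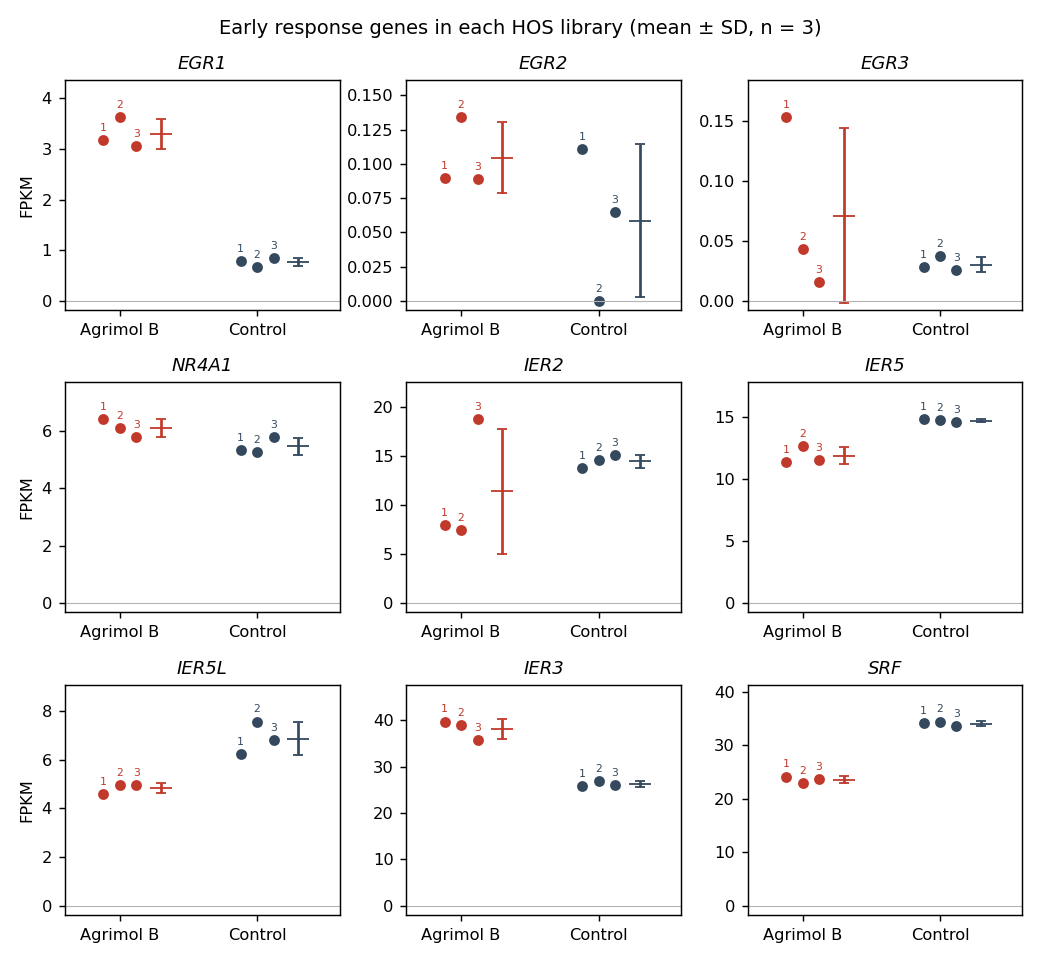
FPKM (y axis, a separate linear scale for each gene) of the 9 early response genes in the 3 Agrimol B libraries (red, left) and the 3 control libraries (blue, right). Small digits are replicate numbers, and bars are the mean ± SD (n = 3). EGR1 stands between 3.06 and 3.64 FPKM with Agrimol B, above all control libraries, and IER2 has a single high Agrimol B library at 18.8 FPKM.

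EGR1 (ENSG00000120738.7; chromosome 5, 138465490 to 138469315, plus strand, hg38, GENCODE release 29; 1 transcript of 2 exons) gave the largest difference of the members. Its level was 3.18, 3.64 and 3.06 FPKM in Agrimol B replicates 1, 2 and 3, against 0.780, 0.673 and 0.837 FPKM in control replicates 1, 2 and 3. All Agrimol B libraries lay above all control libraries, and the 3 within each group were close. The means were 3.29 ± 0.305 FPKM with Agrimol B and 0.763 ± 0.0836 FPKM in control (SD, n = 3 each). The log2 difference was 1.28 ± 0.08 (SE; 95% interval 1.09 to 1.47; limma adjusted p = 8.61e-05). A larger difference in size was seen in 1.98% of tested genes, which placed EGR1 241st of 12143. With a pseudocount of 0.1 FPKM in place of 1, its log2 difference was 1.98 (adjusted p = 9.79e-05).

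EGR1 was expressed low enough for counting error to matter. Its FPKM corresponded to about 239, 324 and 266 fragments in Agrimol B replicates 1, 2 and 3, against about 58, 50 and 65 in control replicates 1, 2 and 3. The lowest 95% Poisson limit of an Agrimol B library was 2.70 FPKM, and the highest such limit of a control library was 1.07 FPKM. These limits cover counting error only and still do not meet. The control values differed among themselves by no more than their own limits, which ran from 0.499 to 1.07 FPKM.

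EGR2 (chromosome 10, 62811996 to 62919900, minus strand), the family member known from Schwann cell myelination, read 0.0898, 0.134 and 0.0889 FPKM in Agrimol B replicates 1, 2 and 3, against 0.111, 0 and 0.0647 FPKM in control replicates 1, 2 and 3. The groups overlapped, and control replicate 2 is listed at 0. EGR3, known from muscle spindle development, read 0.154, 0.0431 and 0.0160 FPKM in Agrimol B replicates 1, 2 and 3, against 0.0278, 0.0369 and 0.0254 FPKM in control replicates 1, 2 and 3. Agrimol B replicates 1 and 2 stood above the control libraries, and replicate 3 stood below them. Neither gene reached the level set for testing, and an exact two-sided permutation test gave p = 0.3 for EGR2 and p = 0.6 for EGR3, where 3 libraries against 3 cannot go below 0.1. Fitted without the filter, their limma adjusted p were 0.323 and 0.441.

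NR4A1 (NUR77; ENSG00000123358.19; chromosome 12, 52022832 to 52059507, plus strand; 22 annotated transcripts) was at 6.41, 6.11 and 5.78 FPKM in Agrimol B replicates 1, 2 and 3, against 5.33, 5.25 and 5.80 FPKM in control replicates 1, 2 and 3. Agrimol B replicate 3 lay just under control replicate 3, so the groups overlapped. The log2 difference was 0.14 ± 0.06 (SE), with a 95% interval of -0.02 to 0.29 that leaves room for a small rise or none (limma adjusted p = 0.114). With median-ratio scaling the difference was 0.08 and with quantile normalization 0.05.

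The closest relatives of these factors were all low. NR4A3 was at 0.748, 0.797 and 0.805 FPKM in Agrimol B replicates 1, 2 and 3, against 0.194, 0.173 and 0.188 FPKM in control replicates 1, 2 and 3. NR4A2 was at 0.555, 0.630 and 0.569 FPKM with Agrimol B, against 0.292, 0.331 and 0.205 FPKM in control. EGR4 was at 0.134, 0.0606 and 0.102 FPKM with Agrimol B, against 0.0353, 0.0356 and 0.0339 FPKM in control. In each of these 3 genes every Agrimol B library was above every control library, which held for 15.3% of the 4233 genes under the filter. Fitted without the filter, limma adjusted p was 9.36e-05 for NR4A3, 0.00338 for NR4A2 and 0.0755 for EGR4, where 42.0% of all 16376 genes were called. These relatives were named after their values were seen.

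IER3 (IEX-1; ENSG00000137331.11; chromosome 6, 30743199 to 30744554, minus strand) was the most abundant member with Agrimol B. It stood at 39.7, 38.9 and 35.7 FPKM in Agrimol B replicates 1, 2 and 3, against 25.8, 26.9 and 26.0 FPKM in control replicates 1, 2 and 3. The groups did not overlap. The means were 38.1 ± 2.14 FPKM with Agrimol B and 26.3 ± 0.587 FPKM in control (SD, n = 3 each), a log2 difference of 0.52 ± 0.05 (SE; 95% interval 0.39 to 0.65; limma adjusted p = 0.000523).

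IER5 and IER5L both fell. IER5 (ENSG00000162783.10; chromosome 1, 181088712 to 181092899, plus strand; a single exon) was at 11.4, 12.7 and 11.6 FPKM in Agrimol B replicates 1, 2 and 3, against 14.8, 14.7 and 14.6 FPKM in control replicates 1, 2 and 3. Its log2 difference was -0.29 ± 0.05 (SE; 95% interval -0.42 to -0.16; limma adjusted p = 0.00537), with about 1142 to 1501 fragments in each Agrimol B library and 1460 to 1513 in each control library. IER5L (ENSG00000188483.7; chromosome 9, 129175552 to 129178262, minus strand; a single exon) was at 4.60, 4.94 and 4.96 FPKM in Agrimol B replicates 1, 2 and 3, against 6.23, 7.56 and 6.79 FPKM in control replicates 1, 2 and 3. Its log2 difference was -0.43 ± 0.08 (SE; 95% interval -0.61 to -0.24; limma adjusted p = 0.00465). In both genes every Agrimol B library was below every control library, and whether the 2 falls differ in size was not tested.

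IER2 (ENSG00000160888.6; chromosome 19, 13150415 to 13154908, plus strand; 3 annotated transcripts of 1291 to 2934 nucleotides) split the Agrimol B libraries. It stood at 7.97, 7.52 and 18.8 FPKM in Agrimol B replicates 1, 2 and 3, against 13.8, 14.6 and 15.1 FPKM in control replicates 1, 2 and 3. Agrimol B replicates 1 and 2 were below all control libraries, while replicate 3 was above them, at 2.43 times the mean of the other Agrimol B libraries. The log2 difference over all libraries was -0.43 ± 0.32 (SE; 95% interval -1.22 to 0.35; limma adjusted p = 0.302). Without Agrimol B replicate 3 it was -0.83 and was called (adjusted p = 0.000899). Without Agrimol B replicate 1 or replicate 2 it was -0.25 or -0.22 and was not called (adjusted p = 0.59 and 0.624), and over all alternatives run the adjusted p went from 0.000899 to 0.624. Agrimol B replicate 3 was over 2-fold above both its mates in 30 of 12143 tested genes, where the other 5 libraries had 14 to 27 such genes. It was over 2-fold below both in 25 genes, where the other 5 libraries had 18 to 40, the most in control replicate 3. The part of that library, and of the choice between transcripts, in the value of IER2 was not tested.

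SRF (ENSG00000112658.7; chromosome 6, 43171299 to 43181507, plus strand; 1 transcript of 7 exons) was at 24.1, 22.9 and 23.6 FPKM in Agrimol B replicates 1, 2 and 3, against 34.1, 34.4 and 33.6 FPKM in control replicates 1, 2 and 3. The groups stood far apart relative to their spread. The means were 23.5 ± 0.619 FPKM with Agrimol B and 34.0 ± 0.397 FPKM in control (SD, n = 3 each). The log2 difference was -0.51 ± 0.04 (SE; 95% interval -0.61 to -0.42; limma adjusted p = 0.000197). Between 2428 and 2746 fragments stood behind each Agrimol B value and between 3412 and 3508 behind each control value.

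**Figure D2:**
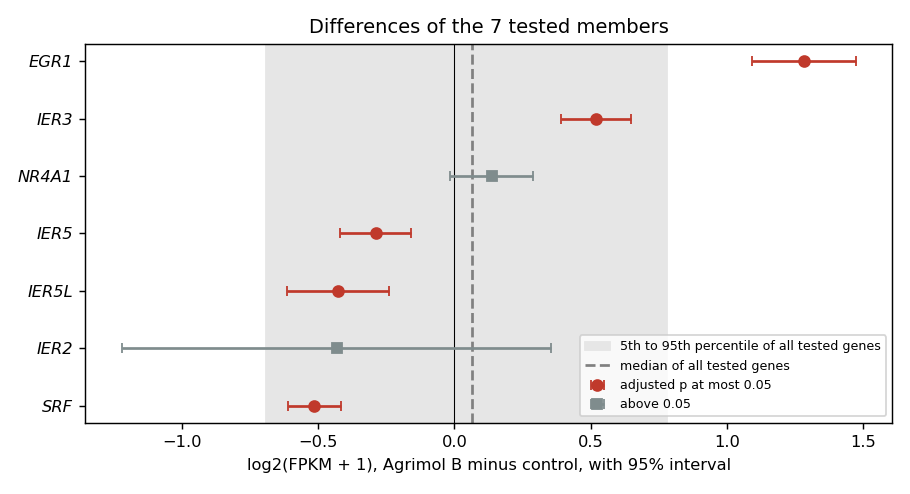
Difference of log2(FPKM + 1), Agrimol B minus control (x axis), with its 95% interval for the 7 tested early response genes (y axis). Red circles passed an adjusted p of 0.05 and grey squares did not. The shaded band runs from -0.69 to 0.78, the 5th to 95th percentiles of all tested genes, and of the 7 point estimates only that of EGR1 (1.28) lies outside it.

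The order of the levels differed between the groups at its top and in its middle. With Agrimol B the order by mean FPKM was IER3 (38.1), SRF (23.5), IER5 (11.9), IER2 (11.4), NR4A1 (6.10), IER5L (4.83), EGR1 (3.29), EGR2 (0.104) and EGR3 (0.0709). In control it was SRF (34.0), IER3 (26.3), IER5 (14.7), IER2 (14.5), IER5L (6.86), NR4A1 (5.46), EGR1 (0.763), EGR2 (0.0586) and EGR3 (0.0301). The ranges of IER5 and IER2 overlapped in both groups, as did those of EGR2 and EGR3, so these neighbours were not ordered beyond their spread. SRF and IER3 exchanged the first place, and NR4A1 and IER5L the fifth, with no overlap between the members of either pair in either group. The order between genes also rests on the transcript lengths used. For NR4A1 the annotated transcripts run from 500 to 4837 nucleotides.

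Of 25 further immediate early genes, 20 were tested, of which 14 were called higher and 0 lower, with a median log2 difference of 0.60. The list was chosen with earlier results of these data known and was not tested as a set. Over all tested genes 30.6% were called higher and 21.4% lower, with a median of 0.07. KLF4 and KLF2, zinc finger factors, stood at 11.4 ± 1.13 and 7.76 ± 0.183 FPKM with Agrimol B, against 1.77 ± 0.212 and 2.28 ± 0.124 FPKM in control (adjusted p = 3.24e-05 and 2.55e-05, limma). ARC, a target of SRF known for synaptic plasticity in neurons, stood at 8.40 ± 0.560 FPKM with Agrimol B and 2.84 ± 0.0314 FPKM in control (limma adjusted p = 4.38e-05). The 6 that did not pass were FOSL2, JUND, ATF3, CCN1, MYC and SGK1, and the 5 under the filter were FOS, EGR4, NR4A2, NR4A3 and BTG2.

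Most cytoskeletal genes that SRF drives with MRTF fell. Of 23 such genes, all tested, 19 were called lower, against 21.4% of all tested genes, and 1 higher, against 30.6%. Their median log2 difference was -0.87, against 0.07 over all tested genes. ACTA2, smooth muscle actin, was at 4.76 ± 0.298 FPKM with Agrimol B and 99.2 ± 2.54 FPKM in control (limma adjusted p = 2.82e-06). ACTG2, enteric smooth muscle actin, was at 44.6 ± 4.25 FPKM with Agrimol B and 171 ± 2.82 FPKM in control, and MYL9, a myosin light chain, at 140 ± 12.9 FPKM with Agrimol B and 453.5 ± 6.96 FPKM in control (adjusted p = 2.09e-05 and 2.82e-05, limma). FHL2 was the member called higher. Actin genes share much sequence, and their split of fragments is uncertain. These genes overlap groups already known to fall in these libraries and are not independent support.

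Of 9 cofactors of SRF and EGR proteins, 8 were tested, 2 were called higher and 2 lower, with a median log2 difference of -0.02. These shares were near those of all tested genes, 30.6% higher and 21.4% lower. The SRF partners ELK4 and ELK1 were at 10.3 ± 0.287 and 44.0 ± 2.90 FPKM with Agrimol B, against 7.58 ± 0.0728 and 34.8 ± 2.13 FPKM in control (adjusted p = 0.000834 and 0.00827, limma). NAB1, a corepressor of EGR proteins, was at 10.3 ± 0.711 FPKM with Agrimol B and 16.4 ± 1.64 FPKM in control (limma adjusted p = 0.00177). MRTFA was the other one called lower (log2 difference -0.22, limma adjusted p = 0.0367). MYOCD, the muscle coactivator of SRF, was under the filter.

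Of 13 genes of the RAS-ERK cascade, all tested, 3 were called higher and 5 lower, beside 30.6% and 21.4% of all tested genes, with a median log2 difference of -0.01. RPS6KA2, an RSK kinase, was at 9.28 ± 1.85 FPKM with Agrimol B and 4.47 ± 0.833 FPKM in control (limma adjusted p = 0.00568). RPS6KA1, another RSK kinase, was at 7.71 ± 2.15 FPKM with Agrimol B and 11.9 ± 0.739 FPKM in control, and MAPK3, which encodes ERK1, at 20.5 ± 2.21 FPKM with Agrimol B and 28.0 ± 0.883 FPKM in control (adjusted p = 0.0351 and 0.00521, limma). These are mRNA levels and carry no measure of kinase activity.

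Of the 14 tested genes reported as EGR1 targets, 4 were called higher (30.6% of all tested genes were) and 5 lower (21.4%), with a median log2 difference of -0.12, against 0.07 over all tested genes. The share called higher was near that of all tested genes. The stress cytokine GDF15 was at 40.7 ± 2.32 FPKM with Agrimol B and 1.40 ± 0.114 FPKM in control, and the angiogenic factor VEGFA at 44.7 ± 1.15 FPKM with Agrimol B and 9.71 ± 1.83 FPKM in control (adjusted p = 3.65e-06 and 7.26e-05, limma). The growth factor genes PDGFA and PDGFB were the other ones called higher.

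HSF1, which the IER5 protein binds, did not pass the test at 30.4 ± 2.31 FPKM with Agrimol B and 24.2 ± 4.33 FPKM in control (limma adjusted p = 0.081). Of the list of HSF1 and 10 heat shock genes, all 11 tested, 9 were called lower and 0 higher, beside 21.4% and 30.6% of all tested genes, with a median log2 difference of -0.47. This list too was chosen with earlier results of these data known. HSPA8, the constitutive chaperone, was at 510.0 ± 15.6 FPKM with Agrimol B and 1345 ± 4.80 FPKM in control (limma adjusted p = 6.74e-06). HSPE1 was at 90.9 ± 3.81 FPKM with Agrimol B and 186 ± 11.7 FPKM in control, and HSPA1A, which has a near-identical copy, at 2.22 ± 0.150 FPKM with Agrimol B and 4.87 ± 0.0507 FPKM in control (adjusted p = 7.26e-05 and 0.00012, limma).

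**Figure D3:**
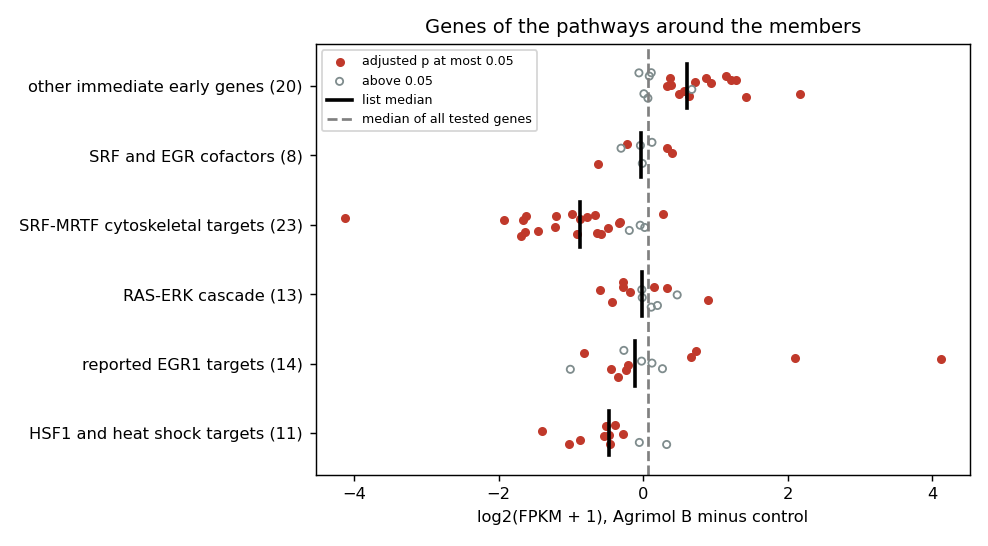
Difference of log2(FPKM + 1), Agrimol B minus control (x axis), for each tested gene of 6 lists around the early response genes (y axis, number tested in brackets). Filled points passed an adjusted p of 0.05, open points did not, black bars are list medians and the dashed line is the median of all tested genes (0.07). The further immediate early genes centre on 0.60 and the cytoskeletal SRF targets on -0.87.

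The genes whose profile over the 6 libraries was most like that of EGR1 were SPHK1, BLZF1, PHLDA1, BHLHE41 and HK2. Likeness was the root mean square difference between log2(FPKM + 1) profiles, each centred on its own mean, and was 0.0375 for SPHK1, a sphingosine kinase, to 0.0603 for HK2, a hexokinase. SPHK1 was at 16.8 ± 1.82 FPKM with Agrimol B and 6.08 ± 0.342 FPKM in control. For SRF the nearest were NLGN2, PELI2, IGFBPL1, ITPK1 and GAB2, with values of 0.00925 to 0.0216. NLGN2, a synaptic adhesion protein, was at 14.6 ± 0.311 FPKM with Agrimol B and 21.4 ± 0.292 FPKM in control. With 2 groups of libraries, such likeness rests mainly on the group difference.

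Libraries of one group were more alike (Pearson r 0.986 to 0.988 across tested genes) than libraries of different groups (0.947 to 0.950). Among the low values of single-transcript genes, 28.6% to 34.8% lay near whole multiples of a fitted step, taken as 1 fragment. From this step about 23930000 to 28330000 fragments were estimated for the Agrimol B libraries and about 23650000 to 24820000 for the control libraries. All 7 mesenchymal and osteoblast markers were measured, with a summed level of 1141 to 1204 FPKM with Agrimol B and 1593 to 1686 FPKM in control. Of the 7, 5 were called lower and 0 higher, beside 21.4% and 30.6% of all tested genes. COL1A2 was at 25.9 ± 2.04 FPKM with Agrimol B and 70.65 ± 3.13 FPKM in control. ALPL was at 7.66 ± 1.04 and 16.45 ± 0.517 FPKM, and SPARC at 160 ± 20.3 and 292 ± 35.35 FPKM, in the same order. RUNX2 and FN1 did not pass. Of 5 epithelial markers KRT8, KRT18 and EPCAM were well expressed, while CDH1 and KRT19 were low. CDH1 was under the filter, at 0.155 ± 0.213 FPKM with Agrimol B and 0.268 ± 0.150 FPKM in control. KRT19 was at 1.95 ± 1.71 FPKM with Agrimol B and 0.0817 ± 0.112 FPKM in control (limma adjusted p = 0.108). The list of 5, mostly KRT8 and KRT18, summed to 292 to 323 FPKM with Agrimol B, against 529.5 to 591 FPKM in control. The 3 endothelial markers summed to at most 0.0892 FPKM with Agrimol B and 0.764 FPKM in control, and the leukocyte marker PTPRC was listed at 0 in all control libraries. The summed level of 3 haematopoietic markers, mostly CD68, was 7.88 to 11.0 FPKM with Agrimol B and 5.35 to 5.83 FPKM in control, while CD14 was at 0.588 ± 0.190 FPKM with Agrimol B and 1.44 ± 0.330 FPKM in control (limma adjusted p = 0.00964). The part of these shifts in the results above was not tested.

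**Figure D4:**
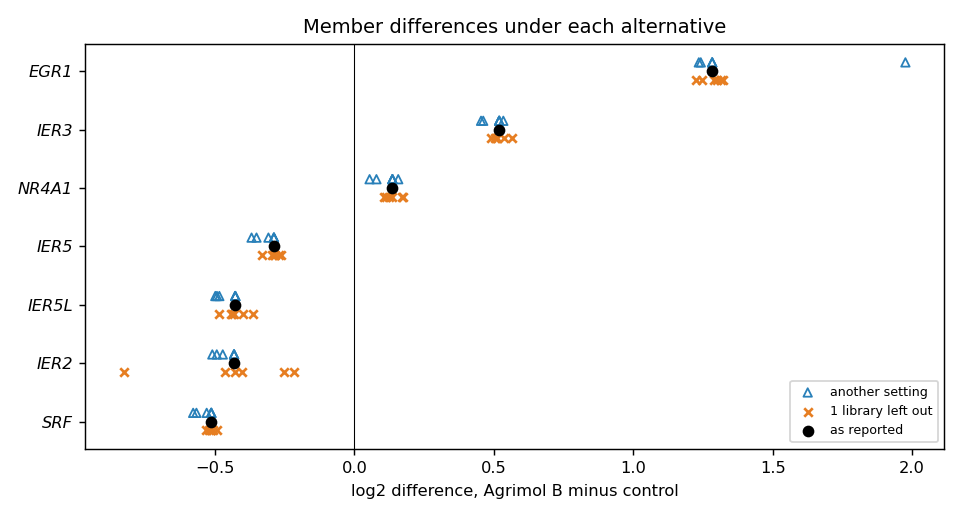
Log2 difference of the 7 tested early response genes (x axis, Agrimol B minus control) as reported (black), under other settings (blue triangles) and with 1 library left out (orange crosses). No gene changes sign, IER2 spans -0.83 to -0.22 according to the library left out, and EGR1 reaches 1.98 with a pseudocount of 0.1.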

How the data were processed

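Per the labels' protocols, RNA was extracted with Trizol and converted to libraries with a kit for mRNA that keeps strand. The authors deposited FPKM values in a single table, each library a column. HISAT, Trimmomatic, cutadapt, FastQC and the build hg38 are named in the submitters' processing notes. For the program behind the FPKM values, its annotation and its use of strand: not given in the sources used here. EGR3, NR4A1, IER2, IER5L and IER3 overlap a gene on the opposite strand in GENCODE release 29, and without strand their reads could not be told apart. Control columns carry the letters of the descriptions in the other order and were matched by these letters and their number.

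Values were analysed as log2(FPKM + 1) with limma 3.58.1 in R 4.3.3 (group term, empirical Bayes with a variance trend, two-sided), for genes averaging 1 FPKM or more. The steps were also run on simulated data, but the outcome is not given here and no result rests on it. Other steps used Python 3.11.15 with scipy 1.17.1, numpy 2.4.6, pandas 2.3.3 and, for figures, matplotlib 3.10.9.

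FPKM hides read numbers. The value of 1 fragment was estimated from 1539 genes with a single GENCODE transcript. Of those under 0.3 FPKM x kb, 28.6% to 34.8% lay within 0.05 of a whole number of fragments. Even spacing gives 10% for a step fixed beforehand. The step was chosen to make this share large, so the share is no test of it. Fragment numbers assume the GENCODE transcript length and are approximate.

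The members and gene lists were chosen with earlier results of these data known. Named genes are the 9 members, up to 3 called genes of each list with the largest differences, and the 5 nearest profiles to EGR1 and to SRF; others are named to complete a count. Of the genes this rule names, 1 is not reported here. No list was tested as a set. Alternatives were another pseudocount, filters, scalings, no variance trend, a replicate block and leaving out each library.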

Additional observations from a re-analysis of the deposited data

How the results depend on the processing

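Over all alternatives run, no tested member changed sign, and the calls of EGR1, IER3, SRF, IER5 and IER5L held wherever the gene was tested. EGR1 left the test under a filter of 5 FPKM, so 1 member was then called higher. IER2 was called lower without Agrimol B replicate 3 (-0.83), and leaving out 1 library gave -0.83 to -0.22. The number of members called lower was 3 to 4 and the number called higher was 2 when 1 library was left out. The number of genes called was 6311, against 4735 to 6882 under the alternatives. Of the calls, 3713 were higher and 2598 lower, against 3089 and 3148 with median-ratio scaling. Replicate numbers gave no sign of pairing. Deviations of same-numbered libraries correlated at -0.01 to 0.04, and those of differently numbered libraries at -0.07 to 0.07. With so few libraries this cannot exclude shared cultures or preparation. With the replicate block 5776 genes were called, 2 members higher and 3 lower, and EGR1 kept its log2 difference of 1.28 (adjusted p = 0.0027). No fragment number was estimated for members with more than 1 annotated transcript, which were EGR2, EGR3, NR4A1, IER2 and IER3. Of these, EGR2 and EGR3 were near 0. Depth limited EGR1 in the control libraries, with about 50 to 65 fragments.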

Other observations

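The CArG box was present in the promoter windows of 156 tested genes, of which 37 were called higher and 46 lower with Agrimol B, with a median log2 difference of -0.04. The letters GCGNGGGCG stood in the windows of 1994 tested genes, of which 559 were called higher and 450 lower (median 0.02). The letters TGACGT stood in the windows of 1377 tested genes, of which 511 were called higher and 227 lower (median 0.13). All 9645 tested genes with a window had 2959 higher and 2043 lower calls (median 0.07). These are descriptions, and no set was tested.

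Among the further immediate early genes, ATF3 had a wide spread with Agrimol B (9.71 ± 4.98 FPKM, against 5.20 ± 0.408 FPKM in control; SD, n = 3 each; limma adjusted p = 0.151). FOSL1, an AP-1 subunit, was the most abundant of them with Agrimol B, at 128 ± 20.6 FPKM, against 66.0 ± 8.08 FPKM in control (limma adjusted p = 0.00237). BTG2, an antiproliferative gene under the filter, was at 0.773 ± 0.0832 FPKM with Agrimol B and 1.15 ± 0.0997 FPKM in control.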
